A study of Mus musculus with 21 samples.

Results

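C/EBPα binding was compared between perfused primary hepatocytes that have or lack Arid1a. The comparison rests on 4 lists of chromatin immunoprecipitation (ChIP-seq) peaks, out of 21 samples in the series. Both WT lists come from mice of genotype Arid1a Fl/Fl, which carry floxed alleles and no Cre. Both KO lists come from Arid1a Fl/Fl mice that also carry Alb-cre, a Cre recombinase driven by the albumin promoter and therefore active in the hepatocyte lineage. All mice were 90 days old, of mixed C57/B6 and 129 background, and the antibody was against C/ebpα (Santa Cruz). Used beside them were 3 WT and 3 KO lists for H3K4me2 from the same genotypes and 1 list for V5-tagged ARID1A from V5-Arid1a mice, while 10 input samples were not used. The labels do not say whether replicates come from separate animals, so each p-value measures only the spread between these libraries. Peak lists cannot show whether Arid1a was removed.

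The peaks of the 4 lists were merged into 27244 regions wherever they shared at least 1 bp. Regions that both WT lists held and neither KO list did were called lost. Regions that both KO lists held and neither WT list did were called gained, and those in all 4 lists were called kept. By this rule 3189 regions were lost, 749 were gained and 11664 were kept, and the remaining 11642 had another pattern. The words lost and gained refer to list membership only, since a peak that misses a caller's threshold can still hold some signal. Each list also holds only 40.0% to 40.1% of its peak numbers, counted up to the highest. Whether any of the missing numbers were peaks at lost or gained regions cannot be told from these lists. The lists held 17733 peaks for WT 1, 23646 for WT 2, 16178 for KO 1 and 17781 for KO 2, with median widths of 391, 381, 421 and 396 bp.

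C/EBPα is a basic leucine zipper transcription factor of differentiated hepatocytes that binds DNA as a dimer and takes part in the control of plasma protein, gluconeogenic, lipid and urea cycle genes. ARID1A is a large DNA-binding subunit of the SWI/SNF (BAF) complex, which uses ATP to slide and evict nucleosomes and is mostly found at enhancers. H3K4me2, the dimethyl mark on lysine 4 of histone H3, lies on active and poised promoters and enhancers. The sites at which C/EBPα acts include promoters next to gene starts and enhancers many kilobases away, so regions are described here by their distance to the nearest end of any protein-coding gene in RefSeq GRCm38.p6, whose coordinates are those of mm10.

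The promoters of 4 genes are shown as examples of kept, lost and gained regions at a gene start. Alb, which encodes serum albumin and served as a check, kept its promoter region in all 4 lists. Acot5, which encodes a peroxisomal acyl-CoA thioesterase, lost the region over its start, and Cat, which encodes the peroxide-degrading enzyme catalase, and Nr2c1, which encodes an orphan nuclear receptor, gained one. The gained region at Nr2c1 lies 99 bp from a kept region. Each sequence is from RefSeq GRCm38.p6 and runs 5′ to 3′ on the gene's strand, from 250 bases before to 50 after the start. Capitals mark the motifs TTGCNNAA (C/EBP), CCAAT, TGACGTCA (CRE), GGGCGG (GC box), CACGTG (E box) and CCGGAAG (ETS), searched on both strands.

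Alb, kept region, chr5:90460620-90460919, plus strand: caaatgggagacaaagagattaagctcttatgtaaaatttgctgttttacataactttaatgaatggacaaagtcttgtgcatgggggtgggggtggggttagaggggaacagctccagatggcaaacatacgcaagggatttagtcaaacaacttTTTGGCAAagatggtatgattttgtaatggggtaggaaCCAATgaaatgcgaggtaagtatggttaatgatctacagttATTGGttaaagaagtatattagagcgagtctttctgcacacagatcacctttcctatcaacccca

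Acot5, lost region, chr12:84069074-84069373, plus strand: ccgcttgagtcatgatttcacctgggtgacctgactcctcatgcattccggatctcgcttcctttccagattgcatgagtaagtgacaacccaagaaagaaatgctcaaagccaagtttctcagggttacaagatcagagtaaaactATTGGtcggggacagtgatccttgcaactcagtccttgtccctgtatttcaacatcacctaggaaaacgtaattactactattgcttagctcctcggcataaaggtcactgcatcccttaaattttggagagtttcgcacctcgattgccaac

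Cat, gained region, chr2:103485104-103485403, minus strand: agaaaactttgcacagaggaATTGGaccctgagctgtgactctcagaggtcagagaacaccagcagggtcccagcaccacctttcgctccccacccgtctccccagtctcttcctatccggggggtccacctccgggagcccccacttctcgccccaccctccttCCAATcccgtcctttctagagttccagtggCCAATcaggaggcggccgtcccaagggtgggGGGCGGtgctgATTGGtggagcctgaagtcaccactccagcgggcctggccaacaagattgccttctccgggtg

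Nr2c1, gained region, chr10:94147681-94147980, plus strand: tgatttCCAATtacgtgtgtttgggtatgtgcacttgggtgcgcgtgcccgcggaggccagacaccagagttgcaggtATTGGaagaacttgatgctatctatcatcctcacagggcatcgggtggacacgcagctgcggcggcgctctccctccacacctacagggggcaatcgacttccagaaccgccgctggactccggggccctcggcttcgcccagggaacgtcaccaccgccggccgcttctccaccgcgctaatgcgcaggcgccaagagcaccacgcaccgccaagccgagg

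In the Alb promoter the only match to the C/EBP motif begins 94 bases before the start, and a CCAAT box follows 56 bases before it and another 15 bases before it. The Acot5, Cat and Nr2c1 promoters hold no TTGCNNAA in these 300 bases. Cat has 4 CCAAT boxes and 1 GC box, Nr2c1 has 2 CCAAT boxes and Acot5 has 1. Acot5 sits among close copies of its gene family, so reads there may be shared between copies.

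Losses lay farther from gene ends than kept regions did, and gains lay closer to them. Of the 2367 regions found in both WT lists within 1 kb of a gene end, 171 were lost, or 7.22% (exact Clopper-Pearson 95% interval 6.21 to 8.34, which covers counting error only). The share was 16.7% at 1 to 10 kb (774 of 4643), 20.3% at 10 to 50 kb (1101 of 5436) and 28.0% beyond 50 kb (1143 of 4083, interval 26.6 to 29.4). The share over all distances was 19.3% (3189 of 16529). Gained regions ran the other way: 10.1% of the regions in both KO lists within 1 kb (287 of 2842, interval 9.01 to 11.3), 4.75% at 1 to 10 kb, 3.97% at 10 to 50 kb and 3.21% beyond 50 kb (92 of 2863, interval 2.60 to 3.93), against 5.27% over all distances (749 of 14222). Within 1 kb there were thus 0.596 lost regions per gained region, and beyond 50 kb there were 12.4. The median distance was 27.2 kb for lost, 11.7 kb for kept and 2.99 kb for gained regions.

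**Figure D1:**
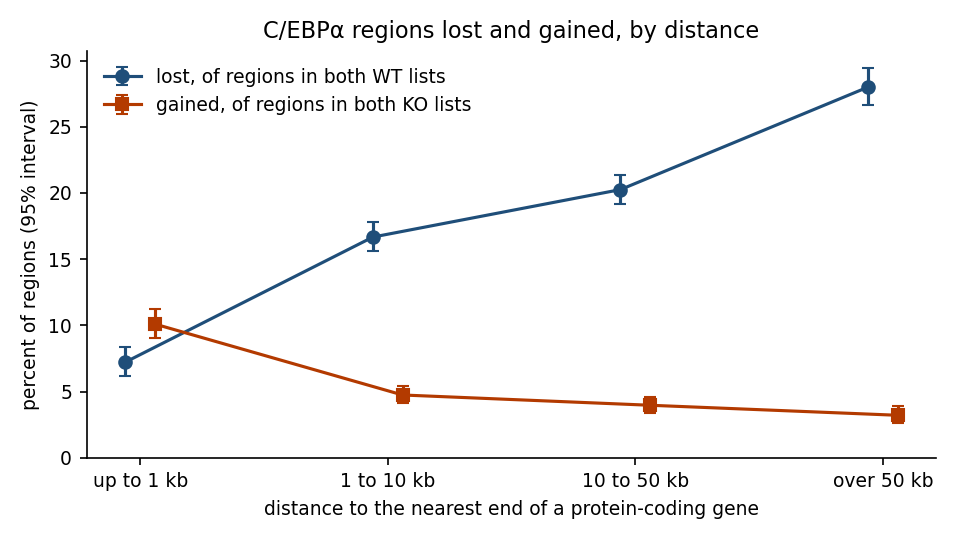
Percent of C/EBPα regions lost (circles, of regions that both WT lists held) and gained (squares, of regions that both KO lists held), by distance to the nearest end of a protein-coding gene; bars are exact 95% intervals for counting error. The lost share climbs from 7.22% to 28.0% with distance, while the gained share goes from 10.1% to 3.21%.

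The numbers of lost and gained regions moved with the sizes of the lists. When the 16178 widest peaks were taken from every list, 1916 regions were lost and 1549 gained. Without WT 1 the rule called 7067 regions lost, and without WT 2 it called 2363 gained. Without KO 1 it called 1988 gained, and without KO 2 it called 1495. With lists of equal size 5.76% of regions within 1 kb and 22.1% beyond 50 kb were lost, and 17.3% and 8.89% were gained. Leaving out each C/EBPα list in turn, the lost share was likewise lowest within 1 kb and highest beyond 50 kb, and the gained share highest within 1 kb and lowest beyond 50 kb.

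The same shift could be read in each list alone, with no merging. These shares come from the same peaks that define lost and gained regions, so they are no separate support for the shift. Within 1 kb of a gene end lay 13.7% of the WT 1 peaks, 14.2% of the WT 2 peaks, 19.9% of the KO 1 peaks and 18.8% of the KO 2 peaks. Beyond 50 kb lay 25.1%, 24.9%, 20.2% and 20.8% in the same order. In both classes the KO lists lay on one side of the WT lists with a gap wider than the spread within a genotype. The difference, KO minus WT, was 5.40 percentage points within 1 kb (WT 14.0 ± 0.354, KO 19.4 ± 0.722, SD, n = 2 each, exact permutation p = 0.33, adjusted p = 0.33), 0.858 points at 1 to 10 kb, −1.74 points at 10 to 50 kb and −4.51 points beyond 50 kb. With 2 lists against 2, the exact two-sided permutation test cannot give a p below 0.33, so none of the 4 distance classes can pass a threshold of 0.05. The median distance of a peak was 15.1 kb in WT 1, 14.7 kb in WT 2, 10.7 kb in KO 1 and 11.2 kb in KO 2.

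**Figure D2:**
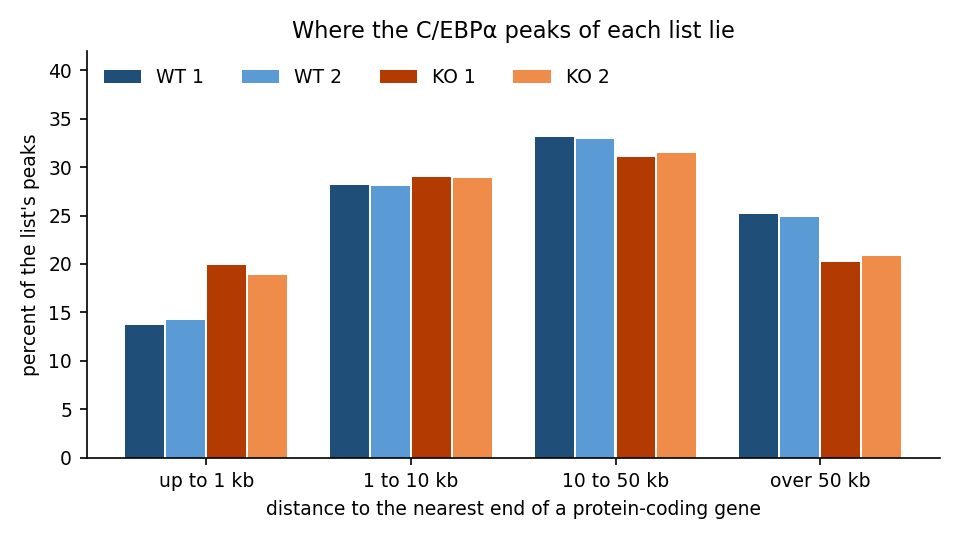
Percent of the peaks of each C/EBPα list in 4 classes of distance to the nearest end of a protein-coding gene; each bar is 1 list and there is no averaging. Within 1 kb both KO lists (19.9% and 18.8%) stand above both WT lists (13.7% and 14.2%), and beyond 50 kb they stand below.

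Gains within 1 kb of a gene end sat mostly at gene starts rather than at the other end. Of all gained regions 248 lay within 1 kb of a start and 24 within 1 kb of another gene end, 14 regions counting for both, among genes whose strand is given. Lost regions were divided almost evenly, with 72 at starts and 69 at other ends. At starts 4.60% of the regions in both WT lists were lost (72 of 1566, interval 3.61 to 5.76) and 12.1% of those in both KO lists were gained (248 of 2042, interval 10.8 to 13.6). At other gene ends the order was the opposite, 16.0% lost (69 of 431) and 5.81% gained (24 of 413). Peaks at starts made up 9.06% of WT 1, 9.55% of WT 2, 14.3% of KO 1 and 13.4% of KO 2, while peaks at other ends made up 2.45%, 2.50%, 2.84% and 2.72%.

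Regions present in 3 of the 4 lists followed the genotype as well. Of the 1604 regions missing from WT 1 alone, 27.0% lay within 1 kb of a gene end, and of the 205 missing from WT 2 alone, 27.3% did. Of the 1086 regions missing from KO 1 alone 7.37% did, and of the 590 missing from KO 2 alone 8.47% did. These regions were not used by the rule for lost and gained regions, but they come from the same 4 lists.

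Kept regions also differed, in the width of their peaks. Within 1 kb of a gene end the median kept peak was 402.5 bp wide in WT 1, 428 bp in WT 2, 474 bp in KO 1 and 463 bp in KO 2, so that both KO lists lay above both WT lists. Beyond 50 kb the medians were 428, 439, 438 and 427 bp, and the genotypes overlapped. Of the 2066 kept regions within 1 kb, 39.6% were wider in both KO lists than in either WT list and 7.70% were narrower in both, against 27.6% and 16.0% of all 11664 kept regions. Beyond 50 kb 20.2% of 2472 were wider and 22.7% narrower. Relative to all kept regions of its own list, the median log2 width within 1 kb differed by 0.12 between KO and WT (exact permutation p = 0.33, the smallest possible with n = 2 each), and beyond 50 kb by −0.05.

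**Figure D3:**
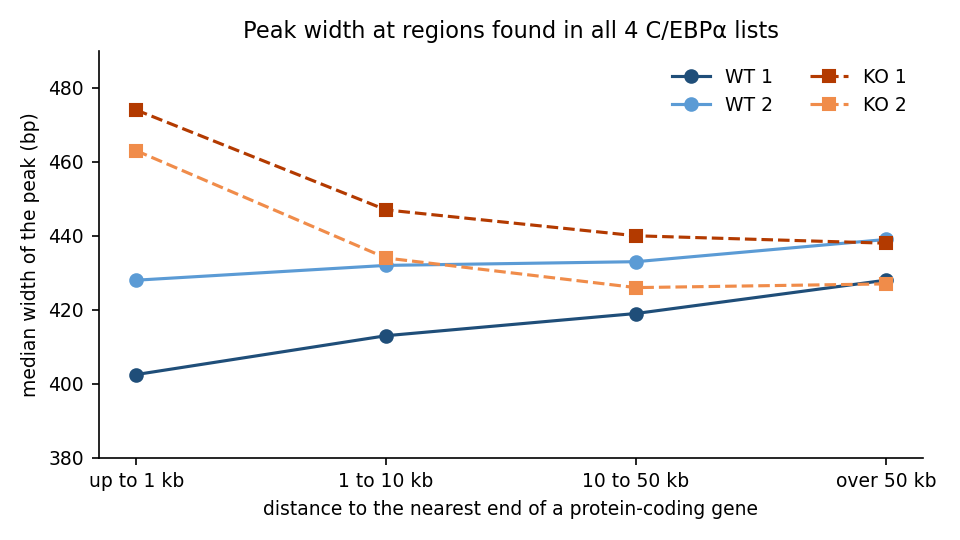
Median width in bp of the peaks at kept C/EBPα regions, for each list, by distance to the nearest end of a protein-coding gene; the vertical axis starts at 380 bp. The KO lists (dashed) are widest within 1 kb at 474 and 463 bp and come together with the WT lists (solid) beyond 50 kb.

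Lost and gained regions were narrower than kept ones in the lists that had them. The median width percentile within its list was 36.5 for lost and 58.1 for kept regions within 1 kb in WT, and 37.4 and 63.6 beyond 50 kb. Gained regions within 1 kb had a median percentile of 38.8 in KO, and 32.9 beyond 50 kb. Restricting the count to regions with a mean width percentile of at least 50, a limit chosen after the data were seen, left 1026 lost and 238 gained regions, with a lost share of 3.98% within 1 kb and 18.5% beyond 50 kb. The gained share was then 6.75% within 1 kb, 1.75% at 10 to 50 kb and 1.77% beyond 50 kb, so that it was not lower in the last class than in the one before it.

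H3K4me2 overlapped a smaller share of lost regions than of gained or kept regions in each of the 6 lists, and its share of lost regions was lower in the KO than in the WT lists. An H3K4me2 peak overlapped 32.9%, 56.0% and 33% of lost regions in WT lists 1 to 3, and 6.80%, 30.5% and 23.3% in KO lists 1 to 3. Every KO list thus marked fewer lost regions than every WT list. The H3K4me2 lists differ widely in size, from 24908 to 175797 peaks, so each share was divided by the share of kept regions marked in the same list. Those kept shares were 73.3%, 87.6% and 68.3% in WT and 49.3%, 82.5% and 61.0% in KO, with overlap between genotypes. The ratio of lost to kept was 0.448, 0.639 and 0.482 in WT and 0.138, 0.370 and 0.382 in KO, a difference of −0.94 on the log2 scale (WT −0.95 ± 0.27, KO −1.89 ± 0.83, SD, n = 3 each, exact permutation p = 0.1, adjusted p = 0.1, the smallest possible). The KO 1 list, the shortest of the 6, carried much of that size, since without it the difference was −0.46.

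The WT 2 list marked the highest share of lost regions among the WT lists. The KO 2 list, which has the same replicate number, marked the highest share among the KO lists. It marked 82.5% of kept regions, more than WT 1 and WT 3, and 30.5% of lost regions (interval 28.9 to 32.2), where WT 1 had 32.9% (interval 31.2 to 34.5) and WT 3 33% (interval 31.3 to 34.6), so that these intervals overlap. At 1 to 10 kb from a gene end KO 2 marked 37.2% of lost regions, more than the 32.6% of WT 3. Beyond 50 kb H3K4me2 covered 27.0%, 50.2% and 29.4% of lost regions in WT and 2.80%, 23.1% and 20.6% in KO, without overlap between genotypes. Of all lost regions 120 (3.76%) were marked by the full set of 3 WT lists and by no KO list, against 0.81% of kept regions. None was marked by the full set of KO lists alone (0 of 3189, which leaves an upper 95% limit of 0.116%). That pattern was as rare among kept regions, with 1 of 11664. No list at all marked 983 lost regions (30.8%), against 6.59% of kept ones.

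Most gained regions carried H3K4me2 in WT hepatocytes too. Within 1 kb of a gene end 95.1%, 97.9% and 88.5% of gained regions were marked in the WT lists and 86.4%, 98.3% and 85.4% in the KO lists, and the genotypes overlapped. Over all distances 375 of 749 gained regions (50.1%) were marked in all 6 lists, against 37.4% of kept regions. The ratio of gained to kept was 1.03, 0.960 and 1.02 in WT and 1.26, 1.04 and 1.10 in KO, so the 3 KO lists lay above the WT lists, by 0.17 on the log2 scale (exact permutation p = 0.1, n = 3 each, adjusted p = 0.1). Within 1 kb the difference was 0.04. No gained region was marked by the 3 KO lists alone, a pattern seen in 1 of 11664 kept regions.

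**Figure D4:**
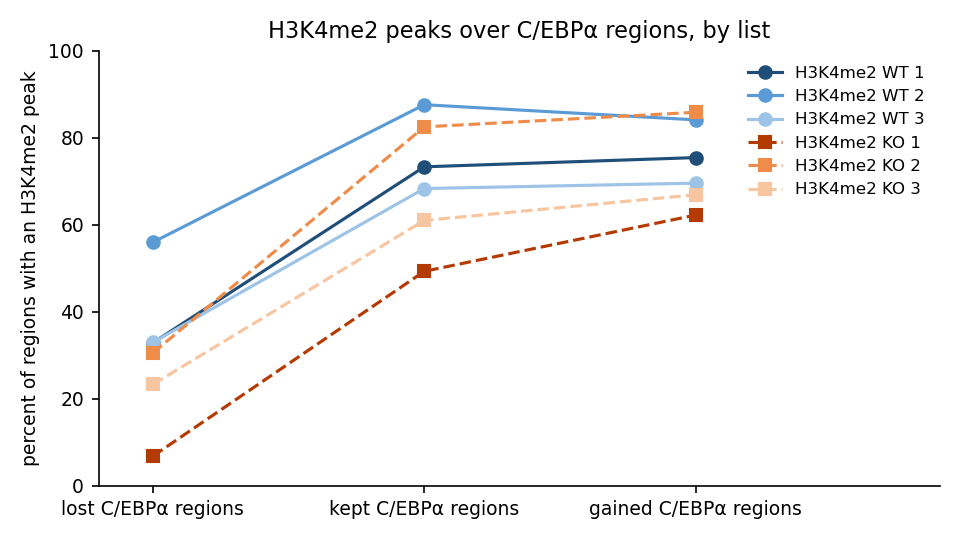
Percent of lost, kept and gained C/EBPα regions that overlap an H3K4me2 peak by at least 1 bp, in each of the 6 H3K4me2 lists; lines join values of 1 list. At lost regions the KO lists (dashed) lie at 6.80% to 30.5% and the WT lists (solid) at 32.9% to 56.0%, while at kept and gained regions the genotypes overlap.

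ARID1A peaks, from the 1 V5 library and its 5726 peaks, lay mainly on kept regions away from gene ends. They overlapped 15.0% of kept regions within 1 kb and 33%, 34.8% and 35.1% in the classes farther out. Lost regions carried an ARID1A peak in 6.43%, 6.07%, 6.54% and 5.60% of cases from the nearest class to the farthest, and their intervals overlap. Gained regions did so in 3.14% within 1 kb (9 of 287) and in 9.71% to 13.0% beyond. Beyond 50 kb 6.49% of both-WT regions with an ARID1A peak were lost (64 of 986), against 34.8% of those without (1079 of 3097). The part of peak width in this difference was not tested.

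By nearest gene end, the regions fell to 9706 of 21887 protein-coding genes. Of the 7311 genes with a region in both WT lists, 2347 had a lost region (32.1%), and of the 6734 genes with a region in both KO lists, 708 had a gained one (10.5%). With lists of equal size the numbers were 1548 and 1393 genes. By number, 1774 genes had exactly 1 lost region, 401 had 2 and 172 had 3 or more, and 930 genes lost every region that both WT lists had, 150 of them with at least 2. No kept region fell to 1017 of the genes with a lost one. Both lost and gained regions fell to 146 genes. Of the 787 genes with at least 5 both-WT regions, 294 lost none and 58 lost at least 50% of them. The nearest gene is a label of position here, not a known target.

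The genes with most lost regions lay amid long stretches with many C/EBPα regions. Tle3, which encodes a Groucho-family corepressor, had 8 lost regions of 13 found in both WT lists, spread from 19.3 to 196.6 kb from its ends, and 5 kept ones. Its widest lost region, chr9:61391639-61392477 inside the gene, was 795 bp in WT 1 and 839 bp in WT 2 and absent from both KO lists. Scara5, a ferritin scavenger receptor gene, had 7 of 8 lost, all within the gene on chromosome 14, and no kept region. Of these, 5 lie between 65715254 and 65722776, at 42.1 to 48.9 kb from the nearest gene end. An H3K4me2 peak of at least 1 WT list overlapped 4 of the 7, and none of the 7 overlapped one in a KO list.

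Cobl (an actin nucleator) had 7 of 9 lost, Pde4b (a cyclic AMP phosphodiesterase) 7 of 10, Cited2 (a CBP/p300-binding coactivator) 7 of 14 and Ptprg (a receptor tyrosine phosphatase) 7 of 15. Fhit, Asap1, Ankrd55 and Serp2 had 6 each. The kept region over an end of Cobl, 607 and 579 bp wide in WT and 573 and 459 bp in KO, shows that loss around a gene could leave a region at its end in place. With lists of equal size Tle3 still had 6 lost regions, Pde4b 6, Scara5 and Cobl 5 each, and Cited2 4.

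Fewer genes had several gained regions, 38 with 2 or more. Lpp, which encodes a focal adhesion protein and lies in a stretch of 43 regions, had 4 gained, 4 lost and 16 kept. Gbf1, which encodes a Golgi guanine nucleotide exchange factor, had 3 gained, 1 of them over its start at chr19:46152174-46152553 (380 bp in KO 1, 338 bp in KO 2). Apoa4, an apolipoprotein gene in the cluster on chromosome 9, had 2 gained regions and none in both WT lists, the wider at chr9:46240876-46241676 with 801 and 632 bp in the KO lists. Mbl2 (mannose-binding lectin), Fads2 (fatty acid desaturase), Ezr (the membrane linker ezrin), Ticam1 (a Toll-like receptor adaptor), Lratd2, Tomm40l and Tyw5 had 2 each.

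Lost and gained regions at one gene lay apart or close together. Besides Lpp, Pik3r1, which encodes the regulatory subunit of PI3 kinase, had 6 lost and 2 gained of 33 regions, Itpr1 (an IP3 receptor) 4 and 2, Bcl6 (a transcriptional repressor) 3 and 2, and Wwox 2 and 2. At Lpp the lost region chr16:24303741-24304292 (441 and 552 bp in WT) and the gained region chr16:24305325-24305748 (416 and 386 bp in KO) are neighbours.

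The widest lost and gained regions of each distance class were as follows. At Cat the gained region chr2:103484941-103486312 was 1288 bp wide in KO 1 and 1372 bp in KO 2, in the 99.7th percentile of the KO lists, with no WT peak and with H3K4me2 in all 6 lists. At Nr2c1 the gained region chr10:94147467-94148421 was 955 and 928 bp wide. It ends 99 bp from a region kept in all 4 lists, and Nr2c1 has no gained region when a peak within 200 bp also counts as present. At Acot5 the lost region chr12:84068709-84069488 was 780 and 685 bp wide in WT. Beside Cisd1, which encodes an iron-sulphur protein of the outer mitochondrial membrane, the lost region chr10:71322945-71324410 was 1177 bp in WT 1 and 1466 bp in WT 2 and lay 6.08 kb away. Sash1 had a lost region of 1246 and 1238 bp at 5.48 kb, marked by H3K4me2 in 2 WT lists and no KO list. Beyond 50 kb the widest lost regions lay nearest to Slco6d1 (829 and 951 bp) and Grik2 (922 and 756 bp), and the widest gained ones within Cmip (1101 and 945 bp) and Clasp1 (889 and 809 bp).

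Cebpa, the gene of the factor itself, kept 5 regions, 1 of them over its start. It gained a region 1.78 kb away at chr7:35116588-35117508, 880 bp in KO 1 and 841 bp in KO 2, with H3K4me2 in all 6 lists. It lost a region 8.19 kb away at chr7:35130122-35130693, 368 and 566 bp in WT, with an ARID1A peak and with H3K4me2 in each WT list but in no KO list. Igfbp2, an insulin-like growth factor binding protein gene, gained a region of 925 and 955 bp at 14.2 kb. Arid1a had 1 region, which neither both WT lists nor both KO lists held.

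Several lists of hepatocyte metabolism and secretion had few lost regions. Across 22 lists with 408 matched genes the lost share ran from 0% to 60% with a median of 13.1%, against 19.3% of all regions, and the gained share from 0% to 17.6% with a median of 4.43%, against 5.27%. Around urea cycle and amino acid breakdown genes 1 of 67 both-WT regions was lost (1.49%), near Oat, the ornithine aminotransferase gene. Around bile acid genes 2 of 70 were lost (2.86%), near Cyp7a1 and Cyp7b1, the 7α-hydroxylases of the classic and the alternative route. Around gluconeogenesis and glycogen genes 4 of 59 were lost (6.78%), 3 of them near Foxo1, which activates gluconeogenic genes in fasting. Around plasma protein, complement and coagulation genes 2 of 69 were lost (2.9%), near C9 and Ambp, and around lipogenesis genes 3 of 59 (5.08%). The lost region near C9 lies 142 bp from a kept region. C9 has 0 lost regions when a peak within 200 bp also counts as present. Regions with the same distances from gene ends would have had 16.7%, 18.5%, 20%, 13.3% and 18% lost in these 5 lists, going by the shares of all regions in each distance class.

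Plasma protein genes had gained regions. They had 9 of 90 both-KO regions gained (10%), among them regions near Alb, Ttr, Serpinc1, Serpina6, Fgb and F9. The exact interval, 4.68 to 18.1, includes both the 5.27% of all regions and the 6.72% that distance alone would give. F9, the coagulation factor IX gene, had 2 of 3 gained, and Serpinc1, the antithrombin gene, 2 of 3. The Serpinc1 region 0.409 kb from the gene's end, 398 and 381 bp wide in the KO lists, lies 132 bp from a kept region. When a peak within 200 bp also counts as present, Serpinc1 has 1 gained region, and with peaks no narrower than the pooled median it has 0. Alb had 1 gained of 12, at chr5:90449683-90450464, 10.4 kb away, 761 and 640 bp wide, and lost none of 7. With lists of equal size the plasma protein list had 10.6% gained and 3.51% lost, against 11.5% and 15.0% of all regions, so its gained share then lay below that of all regions.

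Further lists had lost shares between 12.8% and 17.9%. The fatty acid oxidation and ketogenesis list had 7 of 52 lost (13.5%) and 2 of 47 gained. Below that range, the cytochrome P450 and conjugation list had 7 of 65 lost (10.8%) and 1 of 53 gained. The acute phase list had 9 of 55 lost (16.4%) and 1 of 47 gained, including 2 of 3 lost at Orm2 (an acid glycoprotein gene with close copies beside it) and 2 of 5 at Socs3, the feedback inhibitor of cytokine signalling. The lipoprotein list had 10 of 56 lost (17.9%), 4 of them of 10 at Apob and 3 of 6 at Lipc, the hepatic lipase gene, and 5 of 56 gained. The hepatocyte transcription factors had 14 of 94 lost (14.9%), with 3 of 8 at Foxa2 and 2 of 11 at Onecut1, and 4 of 82 gained. Immediate early and regeneration genes had 6 of 47 lost (12.8%) and 6 of 50 gained, 2 of these at Gadd45a, a stress-induced growth arrest gene. Distance alone would give 6.21% gained, which the exact interval of the gained share (4.53 to 24.3) includes.

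Lists outside liver metabolism lay on both sides of the share of all regions. The cell cycle list had 5 of 20 lost, 3 of them the only 3 both-WT regions of Cdk1, the mitotic kinase, between 3.56 and 8.33 kb from its ends. The growth arrest list had 8 of 31 (25.8%), with 3 of 10 at Dlc1, and the SWI/SNF subunit list 8 of 29 (27.6%), with 3 of 14 at Arid1b, the paralogue of Arid1a, 2 of 3 at Arid2 and 2 of 8 at Smarca2. Distance alone would give 19.4%, 21.5% and 22.2% lost in these 3 lists, and their exact intervals include the 19.3% of all regions. The circadian clock list had 8.33% lost and the insulin and growth factor list 11.6%. The general housekeeping list had 0 of 10 lost (0%, upper 95% limit 30.8%) and 3 of 17 gained, at Gapdh, Tbp and Ywhaz.

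Markers of other liver cells had few regions. Endothelial genes had 7 of 19 lost (36.8%), 3 of 4 at Kdr and 2 of 3 at Flt1, both receptors for vascular endothelial growth factor. Other members went the other way, with 0 of 5 lost at Stab2 and 0 of 1 each at Lyve1 and Cdh5. Pecam1 had 1 of 2 lost and Vwf 1 of 3. Biliary and fetal liver genes had 5 of 13 lost (38.5%), with 3 of 4 at Sox9, a transcription factor of bile duct cells. Afp and Igf2 had 1 of 2 lost each, Gpc3 and Prom1 0 of 2 each and Epcam 0 of 1. Kupffer cell and leukocyte genes had 3 of 5 lost, at Ptprc and Itgam, and 0 of 1 at Cd14. The 2 lost regions given to Ptprc lie 310.7 and 521.0 kb from its ends. The exact intervals of these 3 lists (16.3 to 61.6, 13.9 to 68.4 and 14.7 to 94.7) include the 19.3% of all regions. With lists of equal size 3 of 15 endothelial regions were lost, against 15.0% of all regions. The 3 lost regions near Kdr were 274 to 314 bp wide in WT, and with lists of equal size none was lost. Of 8 hepatocyte markers 6 had a kept region, and of 6 Kupffer cell markers none had any region, whereas 5 of 6 endothelial markers had a kept one, none of them within 1 kb of a gene end. Peak lists do not show how many cells of each type a sample held, and the part of other cells in these shares was not tested.

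**Figure D5:**
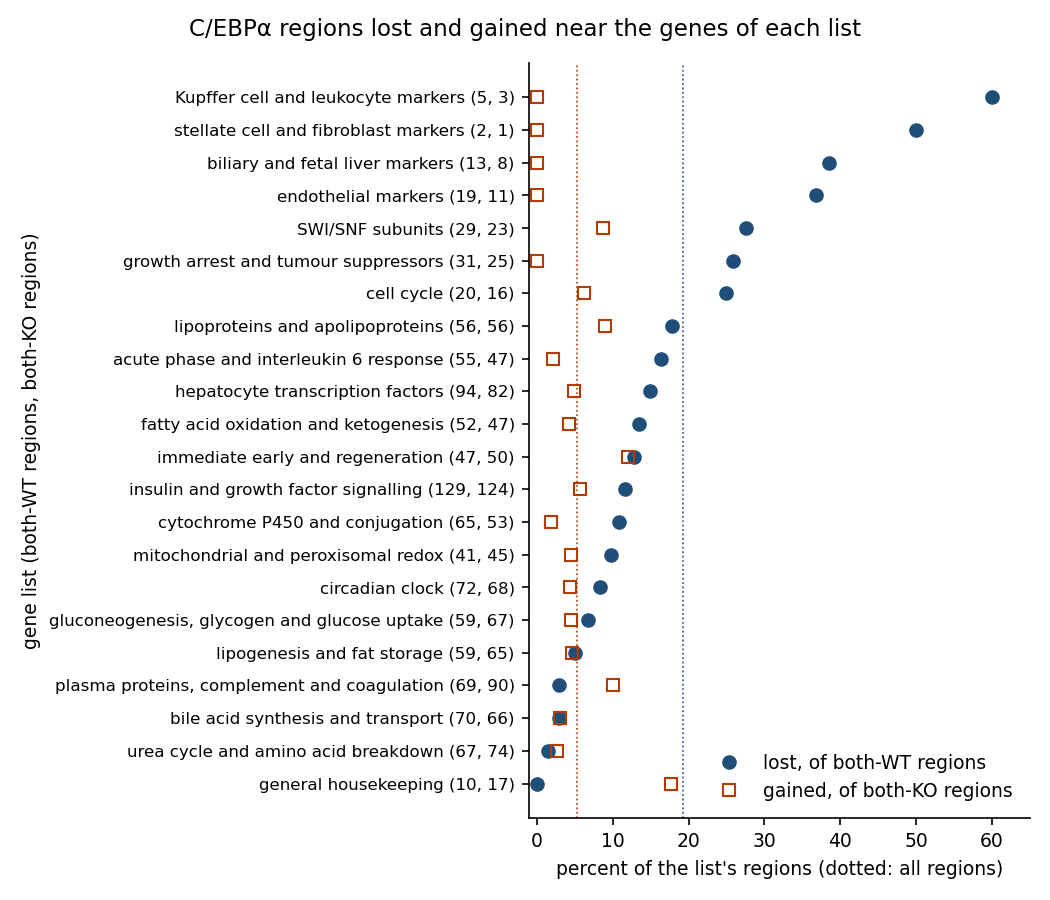
Percent of the both-WT regions lost (filled circles) and of the both-KO regions gained (open squares) by nearest gene end, for 22 gene lists; numbers in brackets are both-WT and both-KO regions, and dotted lines mark all regions at 19.3% lost and 5.27% gained. Lists of hepatocyte metabolism lie to the left of the lost line, and the marker lists of other liver cells, with few regions each, to the right.

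Promoters under gained regions held the C/EBP motif at a share whose interval lay below that of promoters under kept regions. That interval included the share of all promoters. The 300-base RefSeq promoter was available for 17492 genes (21263 promoters), of which 1311 lay under a kept, 247 under a gained and 39 under a lost region. The C/EBP motif TTGCNNAA was found in 24.9% of promoters under a kept region (interval 22.5 to 27.3), in 23.1% under a lost region (9 of 39, interval 11.1 to 39.3), in 12.6% under a gained region (31 of 247, interval 8.69 to 17.3) and in 2162 of all 21263 promoters. The GC box GGGCGG was in 67.2% under gained, 60.1% under kept and 46.2% under lost regions, and in 46.2% of all. The ETS motif CCGGAAG was in 23.5% under gained, 16.6% under kept and 11.6% of all promoters, and in 0 of 39 under lost regions (upper 95% limit 9.03%). The E box CACGTG was in 13.0%, 9.61% and 7.84%, and CCAAT in 49.8%, 48.6% and 38.2%, for gained, kept and all. Median GC content was 60% under gained, 59.0% under kept and 56.3% over all promoters. A match describes these letters only and is not a measured binding site.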

How the data were processed

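ChIP-seq libraries were prepared from perfused hepatocytes, with different kits and instruments for C/EBPα and V5 than for H3K4me2, per the labels' protocols. The submitters' processing notes name the build mm10 and, without roles, HOMER, MACS2 2.0.10.20131216, Picard and Bowtie2 2.2.3. The lists deposited for C/EBPα and V5 hold positions and names only, so peak strength and sequencing depth are unknown. The peak numbers present came to 40.0% to 40.1% of the highest number in each list, with no rule for that share given in the sources used here. The deposited H3K4me2 lists also give the authors' score, fold enrichment (a ratio) and −log10 p and q values per peak. Only −log10 q was used, to rank peaks within a list.

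Peaks were merged by 1 bp overlap, and distance ran from the region's nearer edge to a gene end. Exact two-sided permutation tests over lists were Benjamini-Hochberg adjusted within each family: 4 distance classes or 2 region classes. Python 3.11.15, scipy 1.17.1 and pandas 2.3.3 were used, and the scripts were tested on simulated lists. Samples were treated as unpaired in the main tests. Deviations of same-numbered C/EBPα lists correlated at 0.03 for width, and those of H3K4me2 lists at 0.10, 0.23 and 0.04. These weak positive values do not settle whether lists of the same replicate number were handled together.

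Members and gene lists were chosen with earlier results of these data known. Named genes are the 10 with most lost and the 10 with most gained regions, the 5 with both, up to 2 per direction in each list, the 2 widest lost and gained regions per distance class, and Alb, Cebpa and Arid1a. Other genes named with a list's count were added after their values were seen. Coordinates are 1-based.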

Additional observations from a re-analysis of the deposited data

How the results depend on the processing

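With the widest peaks in equal number per list, lost regions numbered 1916, gained 1549, genes with a lost region 1548 and with a gained region 1393, and the log2 ratio of the gained share up to 1 kb over that beyond 50 kb was 0.96. With peaks no narrower than the pooled median alone there were 1216 lost and 4704 kept regions and 1052 genes with a lost region, and the log2 ratio of the lost share beyond 50 kb over that up to 1 kb was 1.52. With gene starts alone that ratio was 2.47. With regions of a mean width percentile of at least 50, chosen after seeing the data, there were 1026 lost, 238 gained and 7241 kept regions, and the ratio was 2.21. With every gene within 50 kb, 3935 genes had a lost and 1899 a gained region. Leaving out 1 C/EBPα list gave 3781 to 7067 lost, 954 to 2363 gained and 11880 to 13272 kept regions, 2727 to 4345 genes with a lost and 886 to 2009 with a gained region, and log2 ratios of 1.39 to 1.95 (lost) and 0.95 to 1.53 (gained). A list left alone is assumed to vary like the others. The reported values for these 2 ratios were 1.95 and 1.65.

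The 4 distance shares, the 4 widths of kept regions and both H3K4me2 ratios kept their sign under each alternative run for them. The H3K4me2 difference at lost regions ran from −1.19 to −0.46 when 1 list was left out, and was −0.85 when the mark had to cover at least 50% of the region. At gained regions it was then 0.19 (exact permutation p = 0.3). With only H3K4me2 peaks at or above the median −log10 q of their list, it was −0.71 at lost regions (exact permutation p = 0.2) and 0.11 at gained ones (p = 0.7). These 3 p-values lie above the smallest possible, 0.1, so the genotypes were not fully apart there. With the replicate number as a block, the share within 1 kb differed by 5.40 points (exact sign-flip p = 0.5) and H3K4me2 at lost regions by −0.94 (p = 0.25), the smallest p each allows. Kept regions of like width and regions beyond 50 kb, both chosen after seeing the data, gave −0.95 and −1.24. Counts at named genes, which are mostly 0 to 3, moved by over 1.5 times in 246 cases and did not in 1434. The 1434 include cases with 0 regions in both settings, so they do not measure how stable the counts above 0 are. Across settings the lost count ran from 0 to 8 at Apob, 0 to 5 at Itpr1 and 0 to 3 at Kdr. It ran from 6 to 11 at Pde4b and from 5 to 10 at Tle3. Depth is unknown, and 2 lists per genotype limit every C/EBPα test.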

Other observations

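Regions next to a lost one were more often lost than regions next to one that was not lost, though most were not lost. Along the chromosome, a both-WT region within 5 kb of a lost one was itself lost in 31.6% of 702 cases, against 9.67% of 4962 cases beside a region that was not lost. Between 5 and 50 kb the shares were 27.6% and 14.5%, and beyond 50 kb 28.8% and 23.2%. Neighbours share their distance from gene ends, whose part was not tested. The nearest kept region lay a median of 50.8 kb from a lost region and 16.0 kb from a gained one. Kept regions stood within 5 kb of 12.4% of lost and 28.6% of gained regions.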
